A study of Homo sapiens with 4 samples.

Results

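The ETS genes encode transcription factors that share the ETS DNA-binding domain, and 10 of them are described here across 4 arrays of an LNCaP-derived cell model: ETV1, ETV4, ETV5, ERG, FLI1, ETS2, ELF3, EHF, SPDEF and ELK3. They are listed by name, for their roles in prostate cells and prostate cancer. The rule uses no measured value, but the list was chosen with earlier results of these data known. A probe was taken as a member when the RefSeq accession that the array design gives it maps to one of these symbols. This found 13 probes, 4 of ETV1 and 1 of each other gene, among 34127 non-control probes, of which 25422 could be named for 19483 genes.

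The ETS domain recognises DNA that carries the letters GGAA, and the members differ in the partners and signals that steer them. ETV1, ETV4 and ETV5 form the PEA3 group, which acts downstream of growth factor and ERK signalling and supports growth and invasion. In prostate cancer, gene fusions place ERG, and less often ETV1, ETV4 or ETV5, under androgen-driven promoters such as that of TMPRSS2. ELF3, EHF and SPDEF are epithelial members, and SPDEF and EHF are known for their part in the luminal identity of prostate cells. LNCaP, a human prostate cancer line from a lymph node metastasis, is known for high ETV1 and for lacking an ERG fusion.

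Total RNA came from TR9-MeTA14 and TR15-MeTA5 cells, each grown without tetracycline (-Tet) or with the drug for 4 days (+Tet). Both are LNCaP cells that carry the Tet repressor plasmid pcDNA6/TR, which gave the parent lines TR9 and TR15, and the plasmid pcDNA4/TO/NFκB(AD)-MBD. Tetracycline then induces NFκB (AD)-MBD, a FLAG-tagged fusion of an NFκB activation domain with a methyl-CpG-binding domain, and all 4 arrays carry both plasmids, so that no array with tetracycline and without the fusion gene was used here. There was 1 array per condition, 4 in all and on the same slide, so a ratio between 2 arrays has no replicate check, and tetracycline itself, the fusion protein and culture-to-culture spread cannot be told apart.

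The processed signal is the brightness of a probe after background subtraction, and its level depends on the probe as well as on the transcript, so signals are compared only between arrays for the same probe. Of the 34127 probes, 20560 to 24217 were well above background on an array, no spot was saturated, and the 75th percentile of the signal ran from 367 to 777. A log2 fold change is the difference of log2 signals after subtracting this percentile on each array, so an unscaled signal may be higher while the scaled value is lower. Between replicate spots of a probe, the SD of such a log2 ratio was 0.0861, or 0.238 for probes with signals under 50, and this covers the error within an array only. A gene was called when its scaled signal differed at least 2-fold.

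The fusion protein is aimed at methylated CpG, so promoters of 5 members are shown with their CpG dinucleotides. Each sequence covers 250 bases before to 50 after the most upstream start that RefSeq gives the gene on GRCh38.p14, written along the gene's strand, with every CG in capitals. ETV1, ELF3, EHF and SPDEF are shown as members measured on all arrays, and ERG as the member whose window holds the most CpG among the 7 that matched the table.
ETV1 (chr7:13991376-13991675, - strand): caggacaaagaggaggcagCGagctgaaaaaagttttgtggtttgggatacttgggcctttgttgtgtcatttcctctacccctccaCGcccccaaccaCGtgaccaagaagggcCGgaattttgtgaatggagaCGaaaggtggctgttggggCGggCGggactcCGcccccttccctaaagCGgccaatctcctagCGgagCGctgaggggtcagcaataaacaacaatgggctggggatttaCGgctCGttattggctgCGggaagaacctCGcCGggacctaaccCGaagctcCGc
ELF3 (chr1:202010337-202010636, + strand): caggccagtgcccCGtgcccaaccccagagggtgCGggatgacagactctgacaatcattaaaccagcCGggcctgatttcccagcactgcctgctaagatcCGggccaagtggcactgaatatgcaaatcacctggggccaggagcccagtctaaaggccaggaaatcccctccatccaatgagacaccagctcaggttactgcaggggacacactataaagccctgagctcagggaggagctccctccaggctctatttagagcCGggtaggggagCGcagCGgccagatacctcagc
EHF (chr11:34624007-34624306, + strand): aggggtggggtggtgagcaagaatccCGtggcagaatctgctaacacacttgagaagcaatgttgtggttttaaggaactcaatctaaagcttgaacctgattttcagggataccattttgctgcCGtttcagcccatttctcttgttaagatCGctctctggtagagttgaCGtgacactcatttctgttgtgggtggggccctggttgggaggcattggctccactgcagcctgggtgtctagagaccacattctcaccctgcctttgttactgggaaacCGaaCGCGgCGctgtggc
SPDEF (chr6:34556280-34556579, - strand): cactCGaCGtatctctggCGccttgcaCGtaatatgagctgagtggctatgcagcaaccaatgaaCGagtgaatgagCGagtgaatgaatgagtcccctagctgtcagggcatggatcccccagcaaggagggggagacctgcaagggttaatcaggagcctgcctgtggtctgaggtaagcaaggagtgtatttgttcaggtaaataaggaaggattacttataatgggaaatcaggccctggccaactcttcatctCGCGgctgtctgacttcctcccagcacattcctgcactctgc
ERG (chr21:38660618-38660917, - strand): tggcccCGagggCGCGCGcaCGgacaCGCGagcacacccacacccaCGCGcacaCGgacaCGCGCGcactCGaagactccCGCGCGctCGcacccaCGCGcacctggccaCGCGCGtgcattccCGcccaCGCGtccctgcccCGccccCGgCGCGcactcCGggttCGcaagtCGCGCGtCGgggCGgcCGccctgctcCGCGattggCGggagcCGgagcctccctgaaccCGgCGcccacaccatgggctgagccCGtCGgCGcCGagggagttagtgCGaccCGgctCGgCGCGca

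The ERG window held 53 CpG and the ELK3 window 48, more than 99.4% and 98.1% of the 27305 promoter windows of all genes. The ETV1 window held 18 and the ETS2 window 20, against a median of 13 and quartiles of 3 and 28 over all windows. The 3 epithelial genes lay lower, with 7 CpG for ELF3 and 8 each for EHF and SPDEF. Their observed over expected CpG ratios were 0.269, 0.410 and 0.397, beside 1.22 for ERG and a median of 0.577 over all windows. In all, 7 of the 10 members matched this table. Counts depend on the start chosen: the other windows held 4 CpG for ERG, 9 for ELK3, 17 for ETS2, 3 for EHF and 0 to 17 for ETV1. The hexamer GGAAGT, an extended form of the ETS core searched on both strands, was in 1 of these 7 windows, that of SPDEF, and in 23.1% of all windows. It was also in windows of other starts of ETV1, ETS2 and ELK3. The shorter GGAA, which every GGAAGT contains, was in 95.5% of all windows and tells little. Methylation of these windows was not analysed here.

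**Figure D1:**
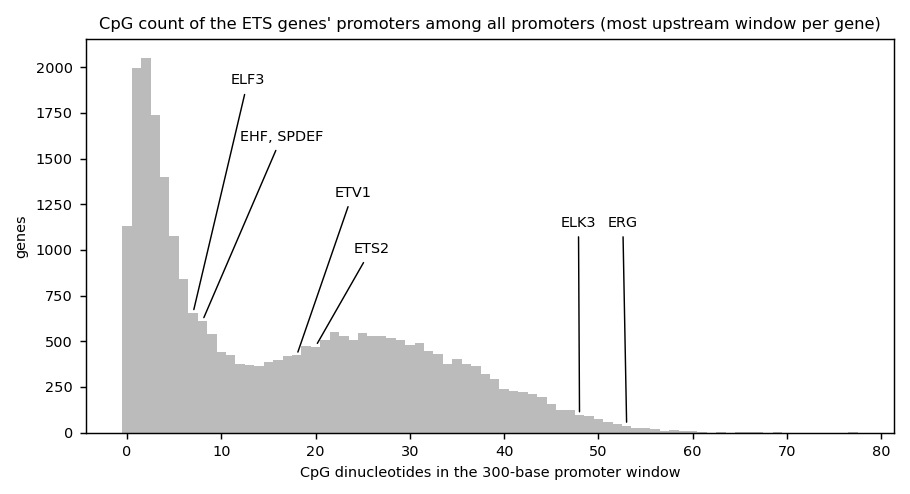
Number of CpG dinucleotides in the 300-base promoter window (x axis) against the number of genes with that count (y axis), with the 7 members that matched marked by name. ELF3, EHF and SPDEF lie at 7 to 8, ETV1 and ETS2 at 18 and 20, and ELK3 and ERG at 48 and 53.

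By the background flag, each member was measured on all 4 arrays or on none. The signals themselves met at the border, with ELK3 at 19.6 in TR15-MeTA5 -Tet and ETV5 at 19.2 in TR15-MeTA5 +Tet. ETV1, ELF3, EHF, SPDEF and ELK3, with 8 probes, were well above background on all 4 arrays. ETV4, ETV5, ERG, FLI1 and ETS2, with 5 probes, were well above background on none. The labelled origin of the cells was checked on luminal prostate genes: KLK3, KLK2, TMPRSS2, FOLH1, HOXB13, FOXA1, KRT8 and KRT18, 8 of 8, were well above background on all arrays, while the basal genes TP63, KRT5 and KRT14 were on none.

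**Figure D2:**
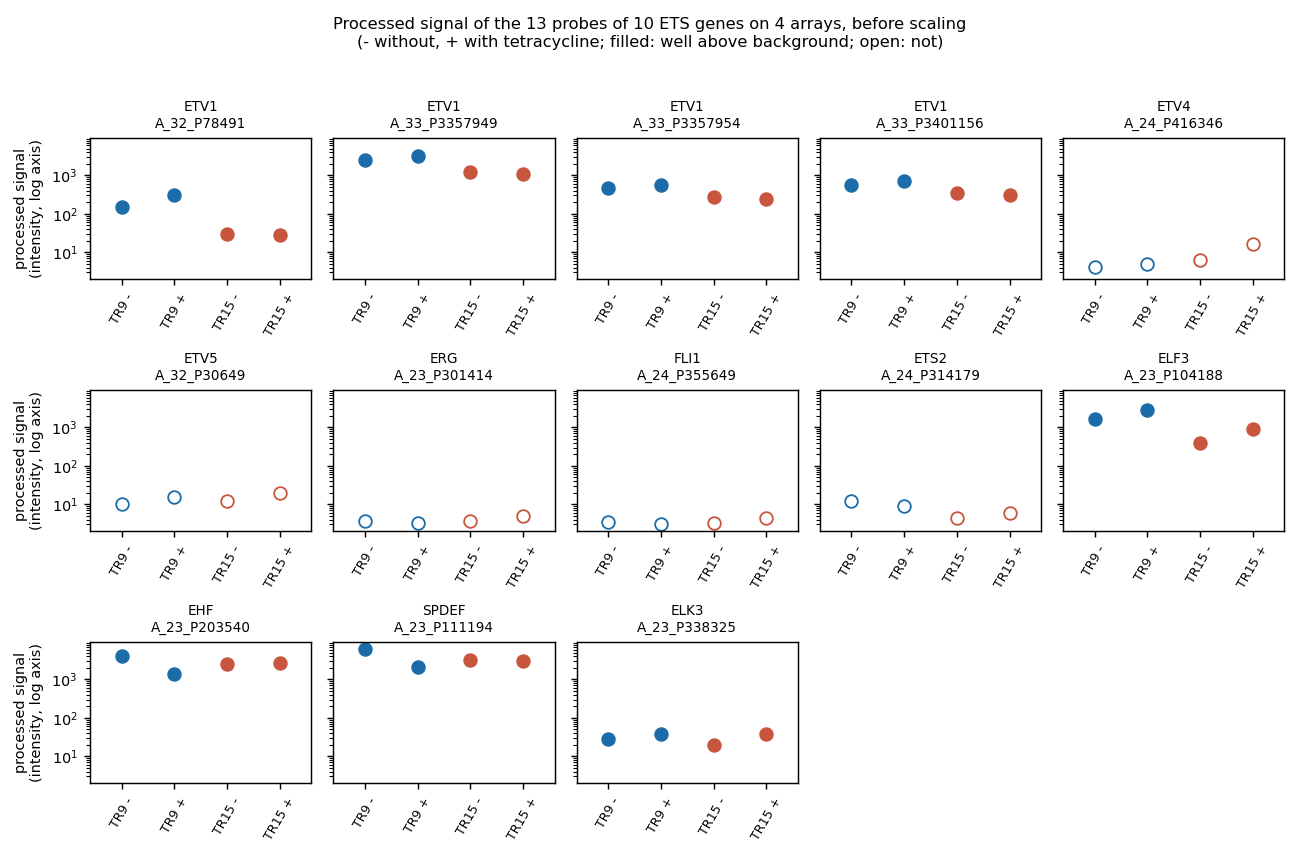
Processed signal (y axis, log scale, intensity) of each of the 13 probes in the 4 conditions (x axis, TR9 and TR15 standing for TR9-MeTA14 and TR15-MeTA5), filled where the probe was well above background. The 5 probes of ETV4, ETV5, ERG, FLI1 and ETS2 are open in every condition, with signals of 3.03 to 19.2.

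ETV1 was measured by 4 probes, all placed by the array design on the same transcript accession. Its brightest probe, A_33_P3357949, gave signals of 2567 and 3221 in TR9-MeTA14 without and with tetracycline, and 1253 and 1079 in TR15-MeTA5. It was above the array's 75th percentile in every condition, and the other 3 probes were below it in every condition. After scaling, this probe was level in TR9-MeTA14, with a log2 fold change of -0.0044, and 1.72-fold lower with tetracycline in TR15-MeTA5, a log2 fold change of -0.78.

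Another pair of ETV1 probes gave the same picture. A_33_P3357954 read 456, 576, 266 and 245 in TR9-MeTA14 -Tet, TR9-MeTA14 +Tet, TR15-MeTA5 -Tet and TR15-MeTA5 +Tet. A_33_P3401156 read 549, 696, 357 and 306 in the same order. Both were within 0.0114 of level on the log2 scale in TR9-MeTA14, and they were 1.61-fold and 1.72-fold lower with tetracycline in TR15-MeTA5.

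The fourth ETV1 probe, A_32_P78491, stood apart from these. It read 152 and 303 in TR9-MeTA14 and 30.2 and 27.5 in TR15-MeTA5, so that it was 1.58-fold higher with tetracycline in the first line and 1.63-fold lower in the second. Between the lines its log2 difference, TR15-MeTA5 over TR9-MeTA14, was -1.58 without tetracycline and -2.94, or 7.69-fold lower, with it. The other 3 probes differed by 1.22-fold at most without tetracycline and were 2.08-fold, 1.64-fold and 1.59-fold lower in TR15-MeTA5 with it. The ETV1 probes therefore share a lower value with tetracycline in TR15-MeTA5 and do not share a direction in TR9-MeTA14. No ETV1 probe reached 2-fold with tetracycline in either line.

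The other PEA3 members gave no usable signal. ETV4 read 4.02, 4.89, 6.21 and 16.5 in the same order of conditions, and ETV5 read 10.5, 15.3, 12.4 and 19.2. The lowest signal that counted as well above background ran from 13.9 to 19.2 over the arrays. Both genes had their highest signal in TR15-MeTA5 +Tet, but on no array was either well above background, and no fold is given.

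ERG and FLI1, close relatives that act in endothelial and blood cells and that tumours activate by gene fusion, were under the background limit throughout. ERG read 3.73, 3.33, 3.62 and 4.89, and FLI1 3.41, 3.03, 3.33 and 4.32. ETS2, a widely used ETS factor that ERK phosphorylates, read 12.0, 8.91, 4.29 and 5.78. None of the 3 passed the background limit with or without tetracycline. A signal under the background limit gives an upper bound for that probe, not a proof that no transcript was made.

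EHF and SPDEF were the members with the largest differences, in TR9-MeTA14. EHF read 4135 without and 1387 with tetracycline in that line, 3.75-fold lower after scaling. In TR15-MeTA5 it read 2455 and 2680, which after scaling was 1.35-fold lower. After scaling, TR9-MeTA14 +Tet was the low array and the other 3 lay close together.

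SPDEF, a factor of luminal and secretory epithelial cells, followed the same order. It read 6327 and 2141 in TR9-MeTA14, 3.72-fold lower with tetracycline, and 3178 and 3016 in TR15-MeTA5, 1.56-fold lower. The log2 fold changes in TR9-MeTA14 were -1.91 for EHF and -1.89 for SPDEF, and both stayed past 2-fold under every scaling tried. The replicate-spot SD of 0.0861 covers the error within an array only. The spread between cultures could not be measured with 1 array per condition.

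ELF3, an epithelial ETS factor that NFκB and inflammatory cytokines are known to raise, moved the other way. Its signals were 1640 and 2815 in TR9-MeTA14 and 385 and 884 in TR15-MeTA5. After scaling it was 1.36-fold higher with tetracycline in the first line and 1.55-fold higher in the second, under the 2-fold limit in both. ELF3 kept this direction in both lines under every scaling tried.

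ELK3, a ternary complex factor that can repress and is turned into an activator by ERK, was dim but measured. It read 28.6, 37.7, 19.6 and 37.5. Its log2 fold changes with tetracycline were 0.07 in TR9-MeTA14 and 0.37 in TR15-MeTA5, beside an SD of 0.238 for probes this dim, and the first of these turned negative under quantile normalization.

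**Figure D3:**
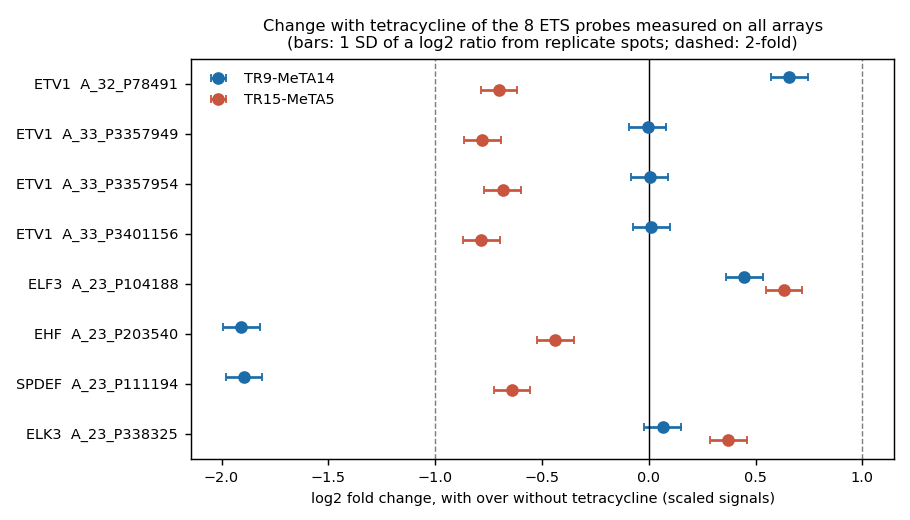
Log2 fold change with tetracycline (x axis, scaled signals) of the 8 probes measured on all arrays (y axis), with 1 point per line. Bars are 1 SD of a log2 ratio from replicate spots (0.0861), which leaves out the spread between cultures. The SD is 0.238 for signals as dim as those of ELK3 and, in TR15-MeTA5, of ETV1 probe A_32_P78491. EHF and SPDEF in TR9-MeTA14 lie beyond 2-fold at -1.91 and -1.89, and no probe does in TR15-MeTA5.

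Counted over the list in TR9-MeTA14, 0 of the 5 members with a fold were at least 2-fold higher and 2, EHF and SPDEF, at least 2-fold lower. Over all genes with a fold in that line, 16.8% were higher and 15.1% lower by the same rule. In TR15-MeTA5, 0 of 5 members were called in either direction, where 9.78% of all genes were higher and 2.21% lower. The members' median log2 fold change was -0.0044 in TR9-MeTA14 and -0.44 in TR15-MeTA5, beside medians of -0.06 and -0.16 over all genes with a fold. These counts are of the measured members, since the 5 dim genes could not enter. With 5 genes and 1 array per condition, they say nothing particular of the list.

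Across both lines, limma with cell line as a block tested 8 member probes among 22818, and 0 passed an adjusted p of 0.05. By the same rule 2.6% of all probes were higher and 0.0131% lower. SPDEF came nearest, with a log2 fold change of -1.27 (SE 0.39), an unadjusted p of 0.0294 and an adjusted p of 0.228 by limma. EHF followed with -1.17 (SE 0.43) and an adjusted p of 0.257 by limma, and ELF3 with 0.54 (SE 0.25) and an adjusted p of 0.306 by limma. The brightest ETV1 probe had -0.39 (SE 0.31) and an adjusted p of 0.509 by limma. SPDEF was the single member probe with an unadjusted p under 0.05, a level that 19.5% of all probes reached. The fit has 1 residual degree of freedom, and on simulated data it recovered 0% of 4-fold changes.

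**Figure D4:**
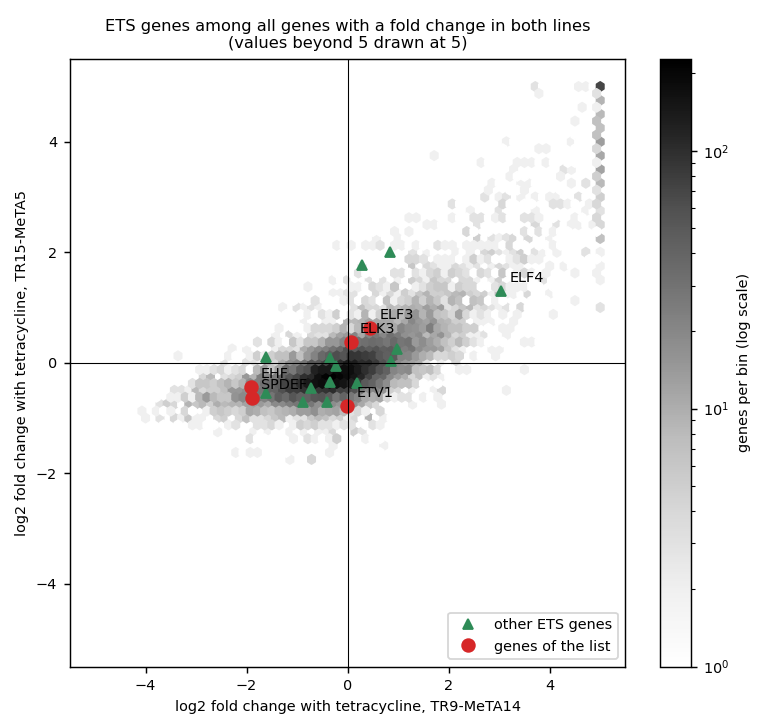
Log2 fold change with tetracycline in TR9-MeTA14 (x axis) against TR15-MeTA5 (y axis) for the 13970 genes with a fold in both lines, as a density of grey bins with values beyond 5 drawn at 5, members as red circles and other ETS genes as green triangles. No member lies beyond 1 in the same direction on both axes, and ELF4 does, at 3.03 and 1.30.

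Without tetracycline, ELF3 was 2.53-fold lower in TR15-MeTA5 than in TR9-MeTA14, and 1 of 5 members was called lower and 0 higher, beside 5.19% lower and 8.17% higher over all genes. EHF differed by -0.0006 on the log2 scale, SPDEF was 1.18-fold and ETV1 1.22-fold lower in TR15-MeTA5, and ELK3 was 1.15-fold higher. These values depend on the scaling: with the spike-in probes 4 members were lower in TR15-MeTA5, since ETV1, EHF and SPDEF then lay at -1.32, -1.03 and -1.28 on the log2 scale, and ELK3 turned to -0.83.

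With tetracycline the lines differed more. EHF was 2.77-fold and SPDEF 2.02-fold higher in TR15-MeTA5, while ELF3 was 2.22-fold and ETV1 2.08-fold lower there. That made 2 of 5 members higher and 2 lower, beside 14.2% and 10.4% of all genes. The ETV1 call is that of its brightest probe, and of the other 3 probes 2 were under the limit, as given above. SPDEF and ETV1 lay just past the limit, and SPDEF fell short of it with median scaling, the percentile over spots, and normexp with quantile normalization (0.97 to 0.99 on the log2 scale). Spike-in scaling took SPDEF to 0.25 and EHF to 0.71. The median of the members was -0.24 without and 0.51 with tetracycline, against 0.12 and 0.07 over all genes. The same +Tet arrays enter these ratios and the ratios with tetracycline, so the 2 sets of values are not separate evidence.

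The change with tetracycline was 1.47 lower on the log2 scale in TR9-MeTA14 than in TR15-MeTA5 for EHF and 1.26 lower for SPDEF. A difference between the lines at least as large was seen for 10.3% and 14.3% of all 13970 genes with a fold in both. For ETV1 it was 0.78 in the other direction, and 30.1% of these genes had a difference at least as large. These differences could not be tested, because a fit of them to 4 arrays has no replicate left over.

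Among the luminal prostate genes some were called lower in the same line as EHF and SPDEF. In TR9-MeTA14, 4 of 8, HOXB13, KLK2, KLK3 and TMPRSS2, were at least 2-fold lower with tetracycline, with a median log2 fold change of -1.25 over the list, while FOLH1, FOXA1 and KRT18 lay between -0.68 and -0.86 and KRT8 at 0.24. In TR15-MeTA5, 0 of 8 were by their brightest probe, with a median of -0.65. KLK2 was 1.98-fold lower there by that probe. Its other probe was 27.4-fold lower in TR9-MeTA14 and 2.95-fold lower in TR15-MeTA5. Over all genes with a fold, 15.1% were at least 2-fold lower in TR9-MeTA14 and 2.21% in TR15-MeTA5. HOXB13, a prostate homeobox factor, read 21980 and 8813 in TR9-MeTA14 and 17700 and 16445 in TR15-MeTA5. The summed signal of the 8 genes was 296160 and 141767 in TR9-MeTA14, and 234584 and 218777 in TR15-MeTA5. The part of this in the EHF and SPDEF values was not tested.

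Markers of other cells were read from the same arrays. Basal markers were under the limit on every array. Of the 5 endothelial markers, CDH5 and VWF were above it on every array and KDR and TEK on none. PECAM1, by its brightest probe, was above it on the +Tet arrays only. The summed signals of these 5 were 338 to 476. Of the fibroblast markers 1 of 5, COL1A1, was measured, with summed signals of 61.4 to 534 that were higher in TR9-MeTA14. Of 5 blood markers, 4 or 5 were measured on each array, with summed signals of 1317 to 3450. With tetracycline CD14 and CD68 passed 2-fold upward in both lines, as did 1147 of 13970 genes. The adjusted p by limma was 0.0475 for CD14 and 0.111 for CD68. LCP1 was 2.75-fold lower in TR9-MeTA14 and CD3E at least 2.55-fold lower in TR15-MeTA5, each without a call in the other line. Over all genes with a fold, 15.1% were lower in TR9-MeTA14 and 2.21% in TR15-MeTA5. The part of these markers in the ETS values was not tested.

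The ETS genes outside the list were 18, measured by 26 probes, of which 12 genes were well above background on all arrays and ETS1, ETV3L and ELF5 on none. One of 14 with a fold in both lines was called in both, ELF4, an activator known from blood cells and interferon responses. ELF4 read 385 without and 3965 with tetracycline in TR9-MeTA14, 8.19-fold higher, and 474 and 1731 in TR15-MeTA5, 2.47-fold higher. Over both lines its log2 fold change was 2.17 (SE 0.49) with an adjusted p of 0.141 by limma, so it did not pass. Over all 13970 genes, 1147 were higher and 117 lower in both lines.

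In single lines the calls differed, and these genes are named after their values were seen. In TR9-MeTA14, 1 of 15 was higher and 3 were lower, namely ELK4, FEV and SPIC. ELK4, a ternary complex factor related to ELK3, read 515 and 213 in that line and 416 and 422 in TR15-MeTA5, 3.05-fold and 1.46-fold lower after scaling, and its other probe was 3.34-fold and 1.32-fold lower. In TR15-MeTA5, 3 of 14 were higher, ELF4, SPIB at 3.40-fold and ETV7 at least 4.00-fold, and 0 lower. SPIB and ETV7 are ETS factors of lymphoid and interferon-treated cells. Beside these counts, 16.8% of all genes with a fold were higher and 15.1% lower in TR9-MeTA14. In TR15-MeTA5 the shares over all genes were 9.78% and 2.21%. With so few genes, the counts say nothing particular of these ETS genes. Over the list the median log2 fold change was -0.34 in TR9-MeTA14 and -0.01 in TR15-MeTA5.

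**Figure D5:**
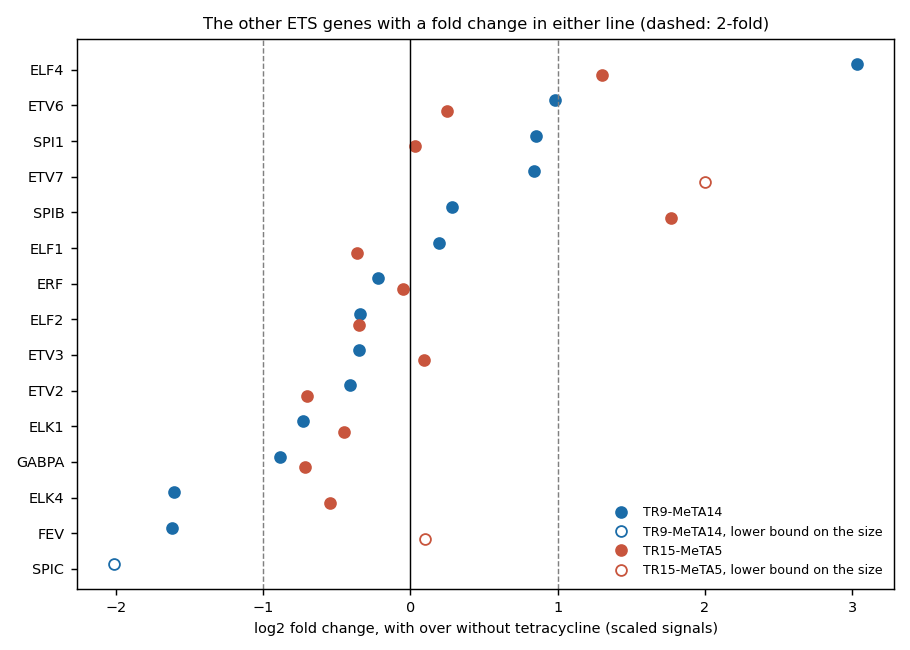
Log2 fold change with tetracycline (x axis, scaled signals) of the ETS genes outside the list that had a fold in either line (y axis), with TR9-MeTA14 in blue, TR15-MeTA5 in red and open points for values that are lower bounds on the size. ELF4 is beyond 2-fold in both lines, at 3.03 and 1.30, and the lower calls, ELK4, FEV and SPIC, are in TR9-MeTA14.

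The genes that supply promoters to ETS fusions in prostate cancer were also followed: TMPRSS2, SLC45A3, NDRG1, ACSL3, HNRNPA2B1, CANT1, KLK2, FOXP1 and DDX5. All 9 were measured. With tetracycline, 4 of 9, ACSL3, KLK2, SLC45A3 and TMPRSS2, were at least 2-fold lower in TR9-MeTA14, 1 of 9, ACSL3, in TR15-MeTA5, and 0 higher in either. Over all genes 15.1% and 2.21% were lower in these lines. These counts rest on the brightest probe of each gene, and the other KLK2 probe was 2.95-fold lower in TR15-MeTA5 as well. ACSL3, a fatty acid activating enzyme, read 1929 and 783 in TR9-MeTA14 and 1874 and 1365 in TR15-MeTA5, log2 fold changes of -1.63 and -1.02, with an adjusted p of 0.132 by limma.

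TMPRSS2, the commonest partner of ERG and an androgen-driven gene, read 14116 and 2175 in TR9-MeTA14 and 6656 and 6117 in TR15-MeTA5. It was 8.17-fold and 1.61-fold lower. SLC45A3, the next gene to ELK4 on chromosome 1 and known for read-through transcripts with it in prostate cells, read 24792 and 3020 in TR9-MeTA14 and 18728 and 16912 in TR15-MeTA5, 10.3-fold and 1.64-fold lower. ELK4 and SLC45A3 were thus both called lower in TR9-MeTA14 and neither in TR15-MeTA5, as named after their values were seen.

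The ETV1 gene of LNCaP has been described in a second place, beside MIPOL1 and FOXA1 on chromosome 14, so 9 genes of that neighbourhood were listed, of which 8 were on the array. With tetracycline 2 of 5 with a fold passed 2-fold upward in TR9-MeTA14, 2 of 6 in TR15-MeTA5, and 0 lower. They were PAX9 and NKX2-1, developmental transcription factors, in both lines. Over all genes with a fold, 16.8% were higher and 15.1% lower in TR9-MeTA14, and 9.78% higher and 2.21% lower in TR15-MeTA5. In both lines 1147 of 13970 genes were higher. PAX9 read 203 and 606 in TR9-MeTA14 and 75.1 and 313 in TR15-MeTA5, 2.37-fold and 2.82-fold higher, with an adjusted p of 0.106 by limma. NKX2-1 read 3.49 and 57.8, then 17.0 and 112, at least 2.97-fold and at least 4.49-fold higher, with an adjusted p of 0.0859 by limma. That fit took the signals of 3.49 and 17.0 as read, though neither was well above background. MIPOL1, named for the reported site, read 414, 287, 178 and 199 by its brightest probe, and FOXA1 read 12379, 9577, 6630 and 6375. By these probes neither was called in either line, but the other MIPOL1 probe, at 249, 118, 66.1 and 76.3, was 2.65-fold lower with tetracycline in TR9-MeTA14 and 1.28-fold lower in TR15-MeTA5. ETV1 had no call in either line.

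PEA3 factors act at the end of the ERK pathway, so 18 genes that ERK signalling is known to raise were listed, of which 17 were on the array. By the 2-fold rule 5 of 15 were higher and 3 lower with tetracycline in TR9-MeTA14, beside 16.8% higher and 15.1% lower over all genes. The 3 lower, named after their values were seen, were CCND1 at 2.90-fold, LIF at 2.72-fold and SPRY2. In TR15-MeTA5, 5 of 13 were higher and 0 lower, beside 9.78% higher and 2.21% lower over all genes. In both lines 4 of 13 were higher, beside 1147 of 13970 genes, namely DUSP5, EGR1, FOSL1 and IER3, of which NFκB is known to raise IER3 as well.

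FOSL1, an AP-1 subunit, read 19.8 and 2867 in TR9-MeTA14 and 35.9 and 876 in TR15-MeTA5, 115-fold and 16.5-fold higher, with an adjusted p of 0.0502 by limma. IER3, an early response gene, read 44.7 and 10751, then 50.1 and 4121, 191-fold and 55.6-fold higher, with an adjusted p of 0.0176 by limma. EGR1, an early transcription factor, read 35.0 and 550, then 10.9 and 598, 12.5-fold and at least 26.2-fold higher, with an adjusted p of 0.0320 by limma. DUSP5, a nuclear ERK phosphatase, read 17.1 and 78.9, then 8.27 and 123, 3.68-fold and at least 5.40-fold higher, with an adjusted p of 0.0970 by limma. For EGR1 and DUSP5 the fit took the TR15-MeTA5 -Tet signals of 10.9 and 8.27 as read, though neither was well above background. DUSP4, DUSP6, SPRY1, SPRY2 and SPRY4, feedback genes of the list named after their values were seen, were not called higher in both lines by their brightest probe. Of these, DUSP6 was at least 4.52-fold higher in TR15-MeTA5 and 1.20-fold lower in TR9-MeTA14, and SPRY2 was at least 3.37-fold lower in TR9-MeTA14 with no fold in TR15-MeTA5. The probes of SPRY4, an inhibitor of receptor signalling, disagreed: the brighter was level in both lines, at 0.24 and 0.09 on the log2 scale, and the dimmer was at least 2.57-fold and at least 2.86-fold higher, from 4.14 to 50.1 and from 4.11 to 65.3. The adjusted p by limma was 0.787 for the brighter probe and 0.0404 for the dimmer. For the dimmer probe the fit took the signals of 4.14 and 4.11 as read, though neither was well above background.

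Among 12689 genes measured on all arrays, each by its brightest probe, the pattern of ETV1 over the 4 conditions was nearest to those of SLC35A3, DTWD1 and TRIQK. The other ETV1 probes, among them A_32_P78491, were not compared. Each gene's 4 scaled log2 values were centred on their mean, which for ETV1 gave 0.34, 0.33, 0.05 and -0.73. The distances from ETV1 over the 4 values were 0.0277, 0.0716 and 0.106, beside a range of 1.06 within ETV1 itself. SLC35A3 is a sugar nucleotide transporter of the Golgi, and the likeness rests on 4 arrays.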

How the data were processed

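Total RNA of 4 cultures was labelled with Cy3 as cRNA and hybridised to 1-colour Agilent whole human genome arrays. The authors extracted the images with Agilent Feature Extraction 10.7.3.1 per the file headers (9.5.1 in the submitters' processing notes) and deposited the processed signal of each spot, an intensity that is background-subtracted and detrended but not normalized between arrays. The deposited table of the whole series holds the same values. The study's methods give a cut-off of 2-fold and name no normalization or test for the arrays.

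Outlier spots (255 to 344 per array) were left out, the log2 signals of a probe's spots were averaged, and the 75th percentile over non-control probes was subtracted. A probe was well above background when more than 0.5 of its spots carried that flag of Feature Extraction. Where the dimmer array was not, the fold is a lower bound set by the higher of the lowest signal well above background on that array and the probe's own. No fold is given where both arrays were below background or the bound was under 1. The probe of highest mean signal stood for a gene. A RefSeq table on GRCh38.p14 turned the accession of a probe into a gene symbol, for 74.5% of probes. The array design uses hg19, so no probe coordinates are given. Promoters came from a RefSeq table of the same assembly. No protein sequences were used, so the likeness of the ETS domains is not analysed here.

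Both lines were tested together with limma 3.58.1 in R 4.3.3 (cell line as a block, intensity trend, Benjamini-Hochberg over the probes that 2 or more arrays measured well above background). The fit used the scaled values without the lower bounds, also where a signal was not well above background. Tested on simulated data of 22818 probes with 200 changed in both lines, 0% of the 4-fold changes and 68% of the 16-fold ones were recovered, and 5 calls were false. Ratios within a line have no test. The number of arrays limits the precision, and p-values measure only the spread between these samples, which may be technical. Python 3.11.15, numpy 2.4.6, pandas 2.3.3 and matplotlib 3.10.9 were used for the rest.

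The members and the lists (other ETS genes, ERK-raised genes, fusion partners, the chromosome 14 neighbourhood and cell markers) were chosen with earlier results of these data known. Named in the text are every member with all probes, genes of these lists called at 2-fold in the same direction in both lines, and the 3 genes nearest to ETV1, with exceptions stated. One gene of the luminal marker list is not reported here. Alternatives were quantile normalization, scaling by the percentile over spots, by 10 E1A spike-in probes or by the median of probes measured on all arrays, normexp (offset 50) with quantile normalization, all spots kept, the deposited series table, plain ratios, filters on all 4 arrays or none, averaging all probes of a gene, cut-offs of 1.5-fold and 3-fold, and limma without block or trend.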

Additional observations from a re-analysis of the deposited data

Results flagged for a closer look

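ETV1 probe A_32_P78491 had opposite changes with tetracycline in the 2 lines, with a log2 fold change of 0.658 in TR9-MeTA14 and -0.701 in TR15-MeTA5. The difference between the lines was not tested, since each has 1 array per condition. In TR15-MeTA5 the probe was dim, at 30.2 and 27.5, and the replicate-spot SD for such signals was 0.238. Over the scalings tried its value stayed above 0 in TR9-MeTA14, from 0.438 to 0.776, and below 0 in TR15-MeTA5, from -0.944 to -0.306. The other 3 probes of ETV1 were within 0.0114 of level in TR9-MeTA14.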

How the results depend on the processing

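EHF and SPDEF stayed the members called lower in TR9-MeTA14 under every setting run, with 0 higher, and 0 member probes passed limma at an adjusted p of 0.05 in any fit, with 1 or 2 at an unadjusted p under 0.05. The log2 fold change in TR9-MeTA14 ran from -1.97 to -1.79 for EHF and from -1.98 to -1.78 for SPDEF. Other counts moved, and the cause was not tested. In TR15-MeTA5, 1 member (ELF3, with a log2 fold change of 1.02) was higher with spike-in scaling and 1 with a cut-off of 1.5-fold, at which 2 were lower. Without tetracycline, the members lower in TR15-MeTA5 than in TR9-MeTA14 went from 1 to 4 with spike-in scaling and to 0 at 3-fold. With tetracycline, those higher went from 2 to 1 with median scaling, with the percentile over spots and with normexp and quantile normalization, and to 0 with spike-in scaling and at 3-fold, at which those lower went from 2 to 0. Of 20 member values, spike-in scaling moved all 20 by more than the replicate-spot SD, quantile normalization 10, normexp with quantile normalization 8 and the mean over probes 3. Signs changed for 3, 2, 2 and 1 of them, for 2 with median scaling, and for 1 each with the percentile over spots and with all spots kept, in ETV1, EHF and ELK3, all from main values of 0.51 or less. The median log2 fold change of 19298 probes measured on all arrays was -0.15 and -0.19 in the lines, and -0.03 and 0.20 with spike-in scaling. The deposited series table holds the same values and is no separate check. No paired analysis was possible because each group has 1 array, numbered 1, so replicate numbers pair nothing beyond the cell line, which already is the block of the limma fit. Arrays were not left out in turn, since each is the only one of its condition. Probes with dim signals, here ELK3 and, in TR15-MeTA5, ETV1 probe A_32_P78491, have the larger spread.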
